A study of Mus musculus with 21 samples.

Results

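The genes described are 10 neuropeptide and granin genes of the mouse cerebral cortex, chosen by symbol from the annotation of the array's probe sets: Penk, Nts, Tac1, Pdyn, Cck, Cort, Adcyap1, Crh, Scg2 and Vgf. Of these 10 genes, 8 had a probe set, and 12393 genes were measured in all. Crh and Vgf were not found among the annotated probe sets and were not analysed here. Each of the other 8 had 1 probe set, which lay above the lowest value of the table on 21 of 21 arrays, so the single probe set stands for the gene.

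RNA of the cerebral cortex was hybridised from 21 mice, 1 array for each mouse, 2 weeks after doxycycline was withdrawn from the diet. All had a mixed C57BL/6J x C3HeJ background, and in the 2 lines a human TDP-43 transgene is switched on by tTA, a transactivator that doxycycline holds inactive. The 5 dNLS bigenic mice (4 male, 1 female, labelled tTA/TDP-DeltaNLS, genotype +/+, line NLS4) carried tTA and a TDP-43 whose nuclear localization signal is defective. The 4 dNLS monogenic mice (3 male, 1 female, genotype +/-, line NLS4) carried that TDP-43 transgene without tTA. The 4 WT bigenic mice (1 male, 3 female, genotype +/+, line WT12) carried tTA and wild-type TDP-43. The 8 nontransgenic mice (genotype -/-) carried neither transgene, and were 4 labelled males and 2 females of line NLS4 with 2 females of line WT12. All groups had been taken off the diet. Ages are not in the labels, and no group carried tTA alone, so an effect of tTA cannot be told apart from that of TDP-43 against mice without tTA. Each TDP-43 form is represented by 1 line, so the protein and the line cannot be told apart either. Published accounts of these lines describe tTA under the Camk2a promoter, which is active mainly in excitatory forebrain neurons.

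Neuropeptides are made as larger precursors that convertases and carboxypeptidases cut inside dense-core vesicles, from which the peptides are released during strong firing. Granins are acidic proteins that help to form those vesicles and are themselves cut into peptides. In cortex Cck, Cort and part of Penk and Tac1 are made by interneurons and some pyramidal cells, whereas Penk, Tac1 and Pdyn are also abundant in the medium spiny neurons of the neighbouring striatum. Several of these genes are known targets of CREB, a transcription factor that binds the cAMP response element.

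The sequences of 4 members are shown because they cover the patterns reported below. Nts and Tac1 varied together from mouse to mouse, Cort was higher in dNLS bigenic mice, and Scg2 holds the complete element. Each is the 250 bases before the annotated start, 5′ to 3′ on the strand of the gene, from RefSeq (GRCm38.p6). They lie at chr10:102490419-102490668 on the minus strand (Nts), chr6:7554811-7555060 on the plus strand (Tac1), chr4:149126764-149127013 on the minus strand (Cort) and chr1:79440027-79440276 on the minus strand (Scg2). Capitals mark matches to the cAMP response element TGACGTCA or to its shorter core TGACG, read on both strands (CGTCA on the other).
Nts: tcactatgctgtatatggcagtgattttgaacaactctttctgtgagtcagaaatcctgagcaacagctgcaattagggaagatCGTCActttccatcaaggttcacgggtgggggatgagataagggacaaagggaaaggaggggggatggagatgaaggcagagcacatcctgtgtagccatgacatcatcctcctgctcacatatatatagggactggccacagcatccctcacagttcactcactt
Tac1: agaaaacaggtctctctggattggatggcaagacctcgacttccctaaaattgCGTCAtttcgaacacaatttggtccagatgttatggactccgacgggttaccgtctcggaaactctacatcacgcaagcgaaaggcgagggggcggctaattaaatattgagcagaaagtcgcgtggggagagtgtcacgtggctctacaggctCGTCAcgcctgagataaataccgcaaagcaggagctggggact
Cort: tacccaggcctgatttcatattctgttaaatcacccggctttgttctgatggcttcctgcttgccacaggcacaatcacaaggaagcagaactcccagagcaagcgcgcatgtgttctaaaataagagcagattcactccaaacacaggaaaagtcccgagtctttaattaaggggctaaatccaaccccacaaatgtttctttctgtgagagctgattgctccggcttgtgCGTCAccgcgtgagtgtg
Scg2: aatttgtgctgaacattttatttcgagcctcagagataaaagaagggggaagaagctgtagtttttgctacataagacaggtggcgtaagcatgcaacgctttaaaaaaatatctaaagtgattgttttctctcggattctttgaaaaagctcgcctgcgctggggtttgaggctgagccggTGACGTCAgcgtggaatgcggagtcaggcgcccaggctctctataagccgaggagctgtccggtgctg
The complete element TGACGTCA stood in the Scg2 window 68 bases before the start, and 1.55% of 32851 such mouse windows hold it. The core TGACG, which lies within the complete element and so overlaps it, was in 17.77% of the windows. It was matched 166 bases before the start in Nts, 197 and 43 bases before it in Tac1, 18 bases before it in Cort and 47 bases before it in Cck. Adcyap1 has a pair of annotated starts whose windows share 1 match, and neither Pdyn window held the letters. Penk, Crh and Vgf had no entry in the table of promoters. A match is a description of the letters and no evidence of binding.

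The values are log2 levels as deposited and had a common lowest value of 2.04, held by between 30.7% and 32.4% of probe sets on each array. The beta-actin 3' minus 5' difference, a measure of 3' bias, was 1.34 to 2.30 log2 units in the dNLS bigenic group, 1.56 to 3.13 among dNLS monogenic arrays, 1.37 to 1.43 in the WT bigenic group and 1.47 to 8.20 among nontransgenic arrays, where nontransgenic 6 and nontransgenic 4 were highest. One array labelled male, nontransgenic 1, read as female by Xist. Neurod6, a transcription factor of cortical excitatory neurons, was read on all 21 arrays, between 9.60 and 11.18, and the hypothalamic genes Sim1 and Otp lay at the lowest value on all of them. Here and below a level within 0.01 of 2.04 counts as the lowest value.

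**Figure D1:**
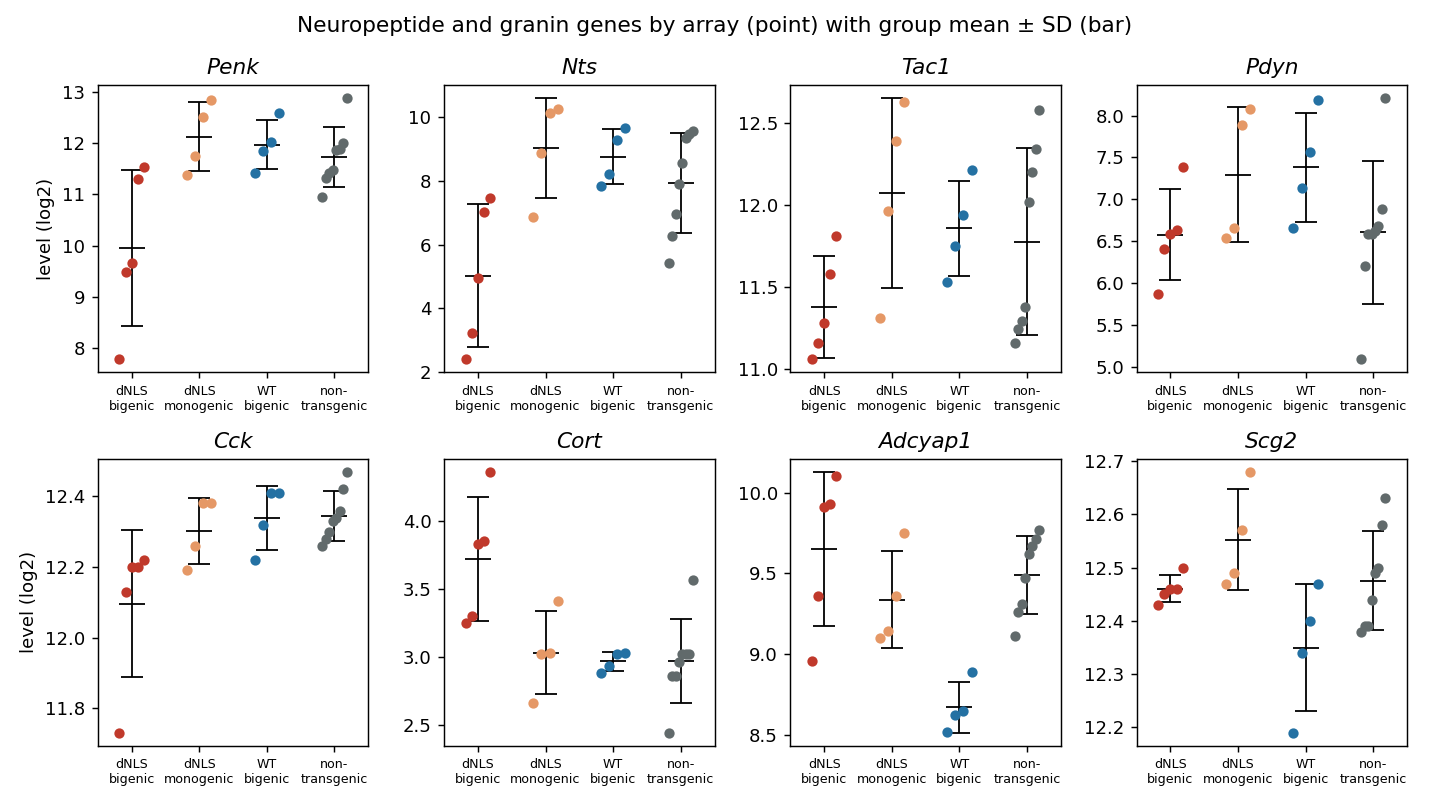
Log2 level of the 8 measured genes in each mouse (points), with the group mean and SD as bars, for dNLS bigenic (n = 5), dNLS monogenic (n = 4), WT bigenic (n = 4) and nontransgenic (n = 8) arrays. Penk and Nts have 3 dNLS bigenic arrays below every nontransgenic array, and each vertical axis has its own range.

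Penk encodes proenkephalin, the precursor of the enkephalin opioid peptides, and fell in dNLS bigenic mice. Its log2 level was 7.79, 9.66, 9.48, 11.30 and 11.53 in dNLS bigenic mice 1 to 5. It was 12.51, 11.75, 12.85 and 11.38 in dNLS monogenic mice and 11.85, 12.59, 11.42 and 12.02 in WT bigenic mice. In nontransgenic mice it ran from 10.94 through a median of 11.66 to 12.88. The dNLS bigenic mice thus fell into 3 low and 2 higher animals. Mice 1 to 3 lay below all 16 arrays of the other groups and mice 4 and 5 within the range of the nontransgenic arrays, so the groups overlapped. The mean was 9.95 ± 1.52 (SD, n = 5) for dNLS bigenic, 12.12 ± 0.68 (n = 4) for dNLS monogenic, 11.97 ± 0.49 (n = 4) for WT bigenic and 11.72 ± 0.59 (n = 8) for nontransgenic mice.

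In limma's fit over all genes with sex as a covariate, Penk was 3.06-fold lower in dNLS bigenic than in nontransgenic mice (log2 change -1.61 ± 0.51 SE, adjusted p = 0.0302). Against dNLS monogenic mice it was 4.42-fold lower (-2.14 ± 0.58, adjusted p = 0.0183), a call lost without dNLS monogenic 1 (adjusted p = 0.0626) or dNLS monogenic 3 (0.0764). Against WT bigenic mice the change was -1.74 ± 0.63 and did not pass (adjusted p = 0.0953). The adjusted p against nontransgenic mice was 0.0778, 0.0616, 0.0690 and 0.0591 when dNLS bigenic 1, 2 or 3 or nontransgenic 1 was left out, with a change of -1.13 without the first of these. It was 0.0520 without both arrays of high 3' bias, 0.0526 against nontransgenic mice of line NLS4 alone and 0.0710 in arrays labelled male. In bulk tissue fewer cells of a type and less RNA per cell cannot be told apart, here and for every gene below.

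Nts encodes the precursor of neurotensin and neuromedin N and had the widest range of the members. Its level was 2.41, 4.96, 3.24, 7.48 and 7.04 in dNLS bigenic mice 1 to 5, the lowest of these close to the bottom of the scale, where changes are compressed. It was 10.14, 8.87, 10.27 and 6.88 in dNLS monogenic mice and 7.85, 9.68, 8.22 and 9.29 in WT bigenic mice. Nontransgenic mice ran from 5.43 through 8.24 to 9.56. The same mice as for Penk, dNLS bigenic 1 to 3, were the lowest of all 21 arrays. No dNLS bigenic array reached the lowest WT bigenic array, whereas mice 4 and 5 lay within the nontransgenic range.

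Against dNLS monogenic mice Nts was 15.6-fold lower in the dNLS bigenic group (log2 change -3.97 ± 1.08 SE, adjusted p = 0.0179). This call was lost without dNLS bigenic 1 (adjusted p = 0.0505), dNLS monogenic 1 (0.0684) or dNLS monogenic 3 (0.0738). Against nontransgenic mice the change was -2.62 ± 0.94 and just missed the threshold (adjusted p = 0.0563), with a 95% interval of -4.61 to -0.63. It passed with arrays centred on their medians (-2.60, adjusted p = 0.0412), without the sex covariate (-2.92, 0.0288), without the genes at the lowest value on all arrays (-2.62, 0.0381) and with array weights (-4.12, 0.00292). It also passed without dNLS bigenic 4 (-3.24, 0.0186) or nontransgenic 2 (-3.01, 0.0341). Among settings where it did not pass were sex as read from Xist (-2.32, 0.0882) and quantile normalization (-2.56, 0.0583). With 1 array left out the adjusted p reached 0.156. Against WT bigenic mice the change was -3.18 ± 1.16, also not past the threshold (adjusted p = 0.0972). A two-sided exact permutation test of the raw difference, without sex and not adjusted over genes, gave p = 0.0194 against nontransgenic and 0.0238 against WT bigenic mice.

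Tac1 encodes the precursor of substance P and neurokinin A, and passed in no comparison of the reported fit. Its level was 11.06, 11.28, 11.16, 11.81 and 11.58 in dNLS bigenic mice, 12.39, 11.96, 12.63 and 11.31 in dNLS monogenic mice and 11.75, 12.21, 11.53 and 11.94 in WT bigenic mice. Nontransgenic mice ran from 11.16 through 11.70 to 12.58, and every pair of groups overlapped. The change was -0.33 ± 0.28 (adjusted p = 0.498) for dNLS bigenic against nontransgenic and -0.69 ± 0.32 (adjusted p = 0.191) against dNLS monogenic mice. The second of these was -1.05 (adjusted p = 0.0233) without dNLS monogenic 4.

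Pdyn encodes prodynorphin, the precursor of the dynorphin opioid peptides, and likewise passed in no comparison of the reported fit. Its level was 6.58, 6.41, 5.87, 7.38 and 6.63 in dNLS bigenic mice, 7.89, 6.65, 8.08 and 6.54 in dNLS monogenic mice and 7.13, 8.18, 6.65 and 7.56 in WT bigenic mice. In nontransgenic mice it ran from 5.09 through 6.60 to 8.21. The dNLS bigenic and nontransgenic means were nearly level, at 6.58 and 6.61, and the change of 0.04 ± 0.44 had a 95% interval of -0.89 to 0.97. Against dNLS monogenic mice the change was -0.70 ± 0.50 (adjusted p = 0.507), and it passed with array weights (-1.29, adjusted p = 0.0165). Of Penk and Pdyn, only Penk passed the test against nontransgenic mice, and the difference between the genes was not tested.

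Cck encodes cholecystokinin, a peptide of cortical interneurons and pyramidal cells, and fell slightly in dNLS bigenic mice. Its level was 12.13, 12.20, 12.22, 12.20 and 11.73 in dNLS bigenic mice, 12.19, 12.38, 12.26 and 12.38 in dNLS monogenic mice and 12.32, 12.41, 12.22 and 12.41 in WT bigenic mice. Nontransgenic mice ran from 12.26 through 12.33 to 12.47, so all 5 dNLS bigenic arrays lay below all 8 nontransgenic arrays. Cck was the only member whose arrays did not overlap in this comparison, in which 12.5% of all genes did not overlap. The decrease was 1.20-fold (log2 change -0.26 ± 0.07 SE, adjusted p = 0.0127, two-sided exact permutation p = 0.000777). Much of it came from the lowest mouse, dNLS bigenic 5, the only female of its group, without which the change was -0.14 (adjusted p = 0.0702). The call was also lost with arrays centred on their medians (-0.25, adjusted p = 0.0667), with array weights (-0.12, adjusted p = 0.0887) and in arrays labelled male (-0.14, adjusted p = 0.0637). The changes against WT bigenic (-0.27 ± 0.09, adjusted p = 0.0597) and dNLS monogenic mice (-0.21 ± 0.08, adjusted p = 0.117) did not pass.

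Cort encodes the precursor of cortistatin, a peptide of cortical interneurons related to somatostatin, and rose in dNLS bigenic mice from a level near the bottom of the scale. It read 3.30, 3.85, 4.36, 3.83 and 3.25 in dNLS bigenic mice, 3.02, 3.03, 2.66 and 3.41 in dNLS monogenic mice and 3.02, 3.03, 2.88 and 2.93 in WT bigenic mice. Nontransgenic mice ran from 2.44 through 2.99 to 3.56. All 5 dNLS bigenic arrays lay above all 4 WT bigenic arrays, and 3 of them above all nontransgenic arrays. The log2 change was 0.79 ± 0.19 SE (adjusted p = 0.00541) against nontransgenic, 0.82 ± 0.23 (adjusted p = 0.0292) against WT bigenic and 0.70 ± 0.22 (adjusted p = 0.0381) against dNLS monogenic mice. The first of these passed with each of 13 arrays left out in turn, at 0.63 to 1.01. The other 2 were lost without any of 6 arrays each, where the adjusted p was at most 0.0641 against WT bigenic and 0.144 against dNLS monogenic mice. So close to the lowest value of 2.04 a fold change is not a measure of the transcript's change.

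Adcyap1 encodes PACAP, a peptide that raises cAMP in the cells that receive it. Against nontransgenic mice it passed in WT bigenic but not in dNLS bigenic mice. Its level was 10.10, 9.93, 9.91, 9.36 and 8.96 in dNLS bigenic mice, 9.36, 9.14, 9.10 and 9.75 in dNLS monogenic mice and 8.52, 8.89, 8.62 and 8.65 in WT bigenic mice. Nontransgenic mice ran from 9.11 through 9.54 to 9.77. All 4 WT bigenic arrays lay below all 17 others. The dNLS bigenic mice lay on both sides of the nontransgenic range, with mice 1 to 3, which were low in Penk and Nts, above it and mouse 5 below it.

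Adcyap1 was 1.75-fold lower in WT bigenic than in nontransgenic mice (log2 change -0.81 ± 0.20 SE, adjusted p = 0.0426). It was 1.93-fold higher in dNLS bigenic than in WT bigenic mice (0.95 ± 0.23, adjusted p = 0.0107), a call that was lost without WT bigenic 1 (0.85, adjusted p = 0.0779). In dNLS bigenic against nontransgenic mice the change was 0.14 ± 0.18 (adjusted p = 0.764). Against dNLS monogenic mice, of the same line, it was 0.31 ± 0.21 (adjusted p = 0.465). That change passed with array weights (0.57, adjusted p = 0.00722) and in arrays labelled male (0.625, adjusted p = 0.0374). The call in WT bigenic mice lay close to the threshold, and its adjusted p was 0.162, 0.0709, 0.126 and 0.0856 without WT bigenic 1, 2, 3 or 4. It was 0.0574, 0.0632, 0.0569 and 0.0558 without nontransgenic 1, 2, 3 or 6. Against the 2 nontransgenic mice of line WT12, at 9.11 and 9.26, the change was -0.51 (adjusted p = 0.713). These were the 2 lowest nontransgenic values.

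Scg2 encodes secretogranin II, the granin from which secretoneurin is cut, and its level was nearly the same on every array. It was 12.43 to 12.50 in dNLS bigenic, 12.47 to 12.68 in dNLS monogenic, 12.19 to 12.47 in WT bigenic and 12.38 to 12.63 in nontransgenic mice. It passed in no comparison in limma's fit. The change in dNLS bigenic against nontransgenic mice was -0.02 ± 0.05, with a 95% interval of -0.13 to 0.09, which is narrow beside the intervals of Penk and Nts. In WT bigenic mice it was -0.13 ± 0.06 (adjusted p = 0.234). In two-sided exact permutation tests of raw means, not adjusted over genes, p was 0.0397 for dNLS bigenic against dNLS monogenic mice, where 4 of 5 dNLS bigenic arrays lay below all dNLS monogenic arrays, and 0.0476 against WT bigenic mice.

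**Figure D2:**
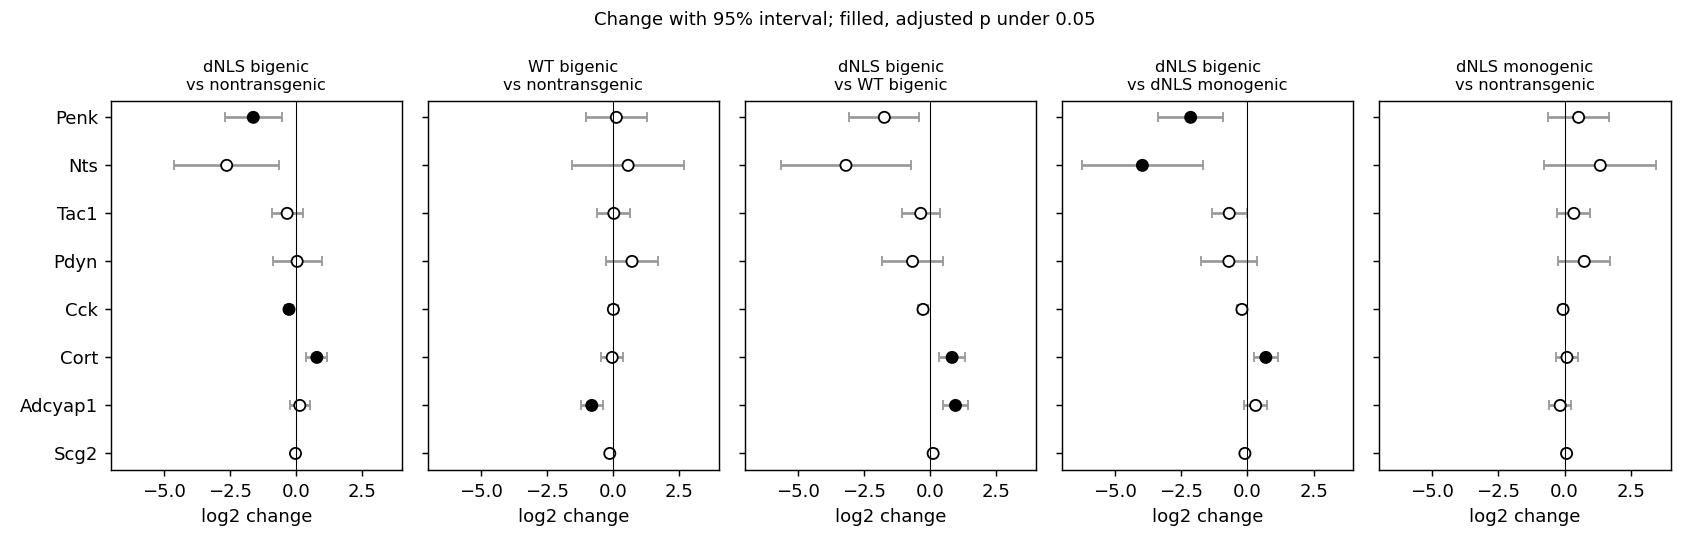
Log2 change of each gene with its 95% interval in 5 comparisons from limma's fit, with filled points where the adjusted p was under 0.05. The intervals of Nts, at -4.61 to -0.63 for dNLS bigenic against nontransgenic, are the widest and those of Scg2 and Cck the narrowest.

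In dNLS bigenic against nontransgenic mice 3 of 8 members passed an adjusted p of 0.05, against 22.3% of all genes. Cort was higher, as were 10.8% of all genes, and Penk and Cck were lower, as were 11.5%. In WT bigenic against nontransgenic mice 1 of 8 passed, against 2.23% of all genes. This was Adcyap1, which was lower, as were 1.54% of all genes, while 0 members and 0.686% of all genes were higher. Adcyap1 was also the only member whose arrays did not overlap there, against 5.25% of all genes. Both comparisons share the 8 nontransgenic arrays. Every share of all genes given here, also for overlap, counts 2854 of 12393 genes that lay at the lowest value on all arrays. All 8 members lay above it. With those genes removed, 3010 genes and 4 of 8 members passed in dNLS bigenic against nontransgenic mice. The share of genes that passed was then larger than 22.3%.

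The direct comparison of dNLS bigenic with WT bigenic mice called 2 of 8 members, against 10.8% of all genes. Cort and Adcyap1 were higher, as were 6.24% of all genes, and 0 members were lower, against 4.53%. The arrays of Nts, Cort and Adcyap1 did not overlap there, against 22.4% of all genes. Between dNLS bigenic and dNLS monogenic mice 3 of 8 members passed, against 14.3% of all genes. Cort was higher, as were 7.76% of all genes, and Penk and Nts were lower, as were 6.54%. The arrays of all 8 members overlapped there, whereas those of 19.8% of all genes did not. In dNLS monogenic against nontransgenic mice 0 of 8 members passed in limma's fit, as did 0% of all genes, and 0 members had an unadjusted p under 0.05 there or in the exact permutation test. All 8 overlapped in that comparison, in which 0.0646% of all genes did not. The widest of those changes was that of Nts, at 1.35 ± 1.00 (adjusted p = 1). The median change of the members was -0.14 for dNLS bigenic against nontransgenic, 0.02 for WT bigenic against nontransgenic, -0.32 for dNLS bigenic against WT bigenic, -0.45 for dNLS bigenic against dNLS monogenic and 0.22 for dNLS monogenic against nontransgenic mice. The median over all genes was 0 in each. Without the genes at the lowest value on all arrays it lay between -0.022 and 0.0024.

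Penk, Nts, Tac1 and Pdyn varied together from mouse to mouse within the groups. With each group's mean subtracted, Penk correlated with Nts at Pearson's r = 0.84 and Spearman's rho = 0.88 over 21 mice (permutation p = 2e-05 for both, adjusted p = 0.00019 over 28 pairs). Penk and Tac1 gave r = 0.74 and rho = 0.84, and Nts and Tac1 r = 0.85 and rho = 0.84 (permutation p = 1e-05 for each, the smallest that 100000 permutations can give, adjusted p = 0.00014). Leaving out the 2 mice farthest from the median, dNLS bigenic 1 and 3, gave r = 0.82, 0.80 and 0.87 for these pairs. Within the nontransgenic mice alone (n = 8) the values were r = 0.69, 0.91 and 0.87.

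Pdyn followed the same mice more loosely, at r = 0.72 and rho = 0.74 with Tac1 (permutation p = 0.00029 and 0.00024, adjusted p = 0.002 and 0.0017). With Nts it gave r = 0.63 and rho = 0.72 (adjusted p = 0.012 and 0.0019), and with Penk r = 0.55 and rho = 0.70 (adjusted p = 0.02 and 0.0067). These were the 6 of 28 pairs whose r passed. Without the 2 farthest mice they gave r = 0.61, 0.66 and 0.67. Cck and Cort passed in rho alone (rho = 0.68, adjusted p = 0.0067, against r = 0.53, adjusted p = 0.12). Adcyap1 ran against Penk at r = -0.67, which did not pass (adjusted p = 0.074).

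**Figure D3:**
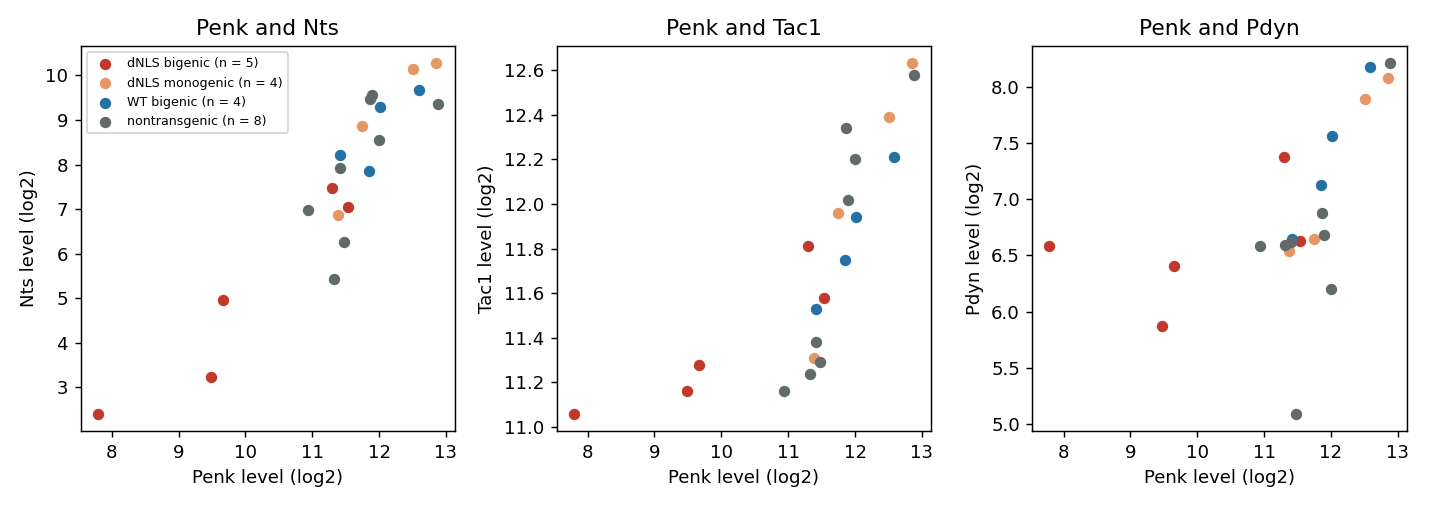
Log2 levels of Nts, Tac1 and Pdyn against that of Penk in each of the 21 mice, coloured by group. The levels rise together, most closely for Nts, and dNLS bigenic mice 1 to 3 lie at the left with Penk at 7.79 to 9.66; in the Pdyn panel nontransgenic mice reach lower, to 5.09.

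The genes with the nearest pattern, by Pearson's r within groups over 21 arrays among 8365 genes above the lowest value, included 3 markers of the striatum list below, Rgs9, Ppp1r1b and Rarb, for the same 4 members. For Penk they were Rgs9 (r = 0.89), a regulator of G protein signalling, and Ppp1r1b (0.88), which encodes the phosphatase inhibitor DARPP-32. For Nts they were Ppp1r1b (0.88) and Tac1 (0.85), for Tac1 Rarb (0.90), a retinoic acid receptor, and Rgs9 (0.86), and for Pdyn Kcnab1 (0.83), a potassium channel subunit, and Ppp1r1b (0.82). For Cck they were Snap91 (0.84), a clathrin assembly protein, and Ptprk (0.83), a receptor phosphatase. The nearest genes were looser for Cort, with Ube2j2 (0.77) and Gna13 (0.74), for Adcyap1, with Opn3 (0.72) and Rheb (0.68), and for Scg2, with Inhba (0.71) and Nacc1 (0.67).

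A list of 20 striatum markers was set beside these genes, since a dissected cortex can carry striatal tissue, and 12 of the 20 were measured, with 0 at the lowest value on all arrays. The log2 of their summed level was 12.77 to 13.32 in dNLS bigenic, 12.84 to 13.91 in dNLS monogenic, 12.97 to 13.67 in WT bigenic and 12.43 to 13.84 in nontransgenic mice, so all groups overlapped. The mean log2 level of the 12 was 5.39 to 7.81 in dNLS bigenic, 5.52 to 8.41 in dNLS monogenic, 6.24 to 7.87 in WT bigenic and 5.66 to 8.32 in nontransgenic mice. On that scale dNLS bigenic 1 and 3, at 5.39 and 5.48, were the lowest of all 21 arrays and dNLS bigenic 2, at 5.70, was near the bottom, so the markers were low in the mice that were low in Penk and Nts. None of the 12 passed in any of 5 comparisons in limma's fit, and between 0 and 2 had an unadjusted p under 0.05. The median level was 8.02 in dNLS bigenic and 9.33 in nontransgenic mice for Rgs9, 8.22 in dNLS bigenic and 9.11 in nontransgenic mice for Ppp1r1b, and 3.07 in dNLS bigenic and 4.28 in nontransgenic mice for Rarb. For Drd2, the dopamine receptor of enkephalin-bearing striatal neurons, it was 2.70 in dNLS bigenic and 2.92 in nontransgenic mice. The dNLS bigenic medians of Rarb and Drd2 lie near the lowest value. Pde10a went the other way, with a median of 7.37 in dNLS bigenic and 7.14 in nontransgenic mice. The median log2 change of the 12 markers in limma's fit was 0.15 in this comparison. It was -0.33 for dNLS bigenic against WT bigenic and -1.14 against dNLS monogenic mice. Within groups the summed level followed Pdyn (r = 0.86, rho = 0.88), Tac1 (0.69, 0.65), Penk (0.66, 0.71) and Nts (0.65, 0.71) over 21 mice (permutation p adjusted over 24 relations 0.0017, 0.022, 0.002 and 0.018 for r). The values of r were 0.78, 0.54, 0.59 and 0.64 without the 2 farthest mice. Cck, Cort, Scg2 and Adcyap1 gave r between -0.40 and 0.11, none past the threshold.

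The striatal level was then added to the fit as a covariate, a choice made after seeing the data, first as the summed and then as the mean log2 level. Against nontransgenic mice the change of Penk was -1.74 (adjusted p = 0.00462) with the sum and -1.53 (adjusted p = 0.00109) with the mean, beside -1.61 without either. That of Nts was -2.84 (adjusted p = 0.0111) with the sum and -2.48 (adjusted p = 0.0085) with the mean, beside -2.62, and passed with both. Against dNLS monogenic mice the changes were smaller with a covariate, at -1.65 and -1.55 for Penk and -3.08 and -2.96 for Nts, and passed (adjusted p at most 0.0291). Against WT bigenic mice they were smaller too, at -1.44 with either covariate for Penk and -2.65 and -2.69 for Nts. There they did not pass with the sum (adjusted p = 0.0834 for Penk and 0.0888 for Nts) and passed with the mean (0.0167 and 0.0370). The call of Cort against dNLS monogenic mice was lost with both (adjusted p = 0.0803 and 0.0828), and that of Adcyap1 in WT bigenic mice with the sum alone (-0.72, adjusted p = 0.0959).

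**Figure D4:**
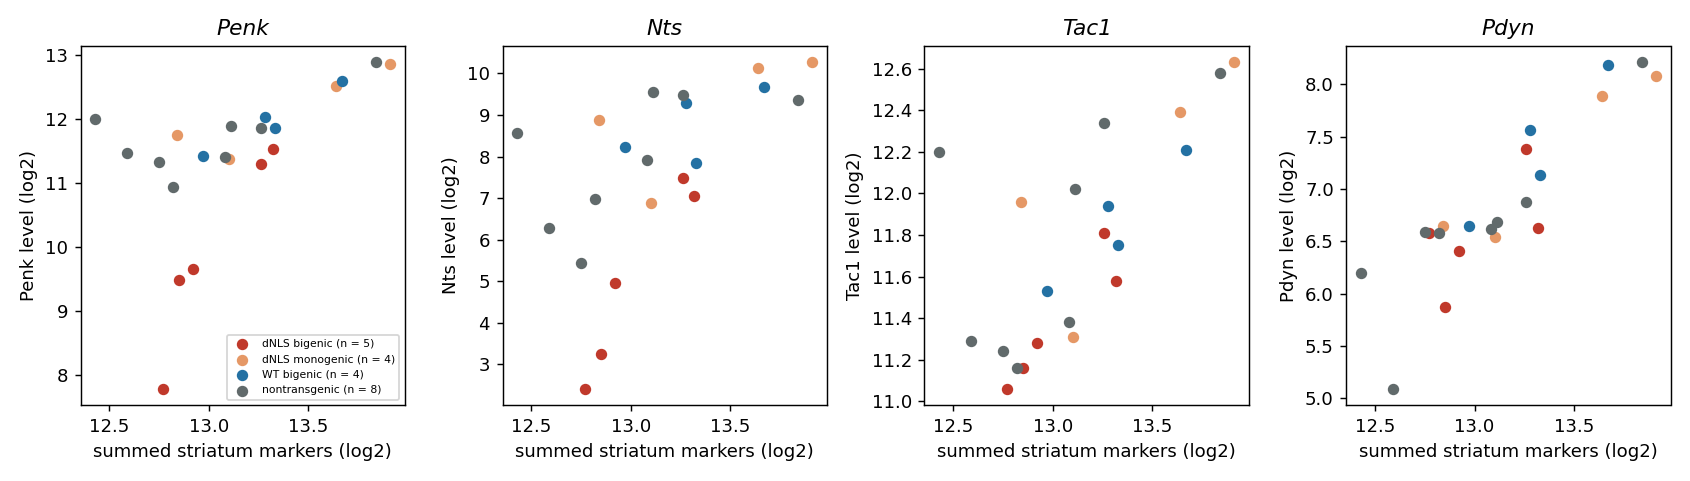
Log2 level of Penk, Nts, Tac1 and Pdyn against the log2 of the summed level of 12 striatum markers in each of 21 mice, coloured by group. Pdyn follows the markers most closely, and dNLS bigenic mice 1 to 3 lie below nontransgenic mice of like summed level in Penk and Nts. By the mean log2 level of the markers, which is not drawn, dNLS bigenic 1 and 3 (5.39 and 5.48) have no nontransgenic match. The lowest nontransgenic mouse is at 5.66 on that scale.

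Markers of other regions and cells were also compared between dNLS bigenic and nontransgenic mice, where 22.3% of all genes passed, 10.8% higher and 11.5% lower. The summed level of 9 measured hippocampus markers was 12.29 to 12.63 in dNLS bigenic and 13.35 to 13.66 in nontransgenic mice, with 4 lower and 1 higher past the threshold, and Prox1 and Iyd at the lowest value on all arrays. The higher gene was Lct, whose mean of 2.09 in dNLS bigenic and 2.04 in nontransgenic mice lay close to the lowest value. The hippocampus sum rested mostly on Calb1 and Wfs1, both among the lower genes. Calb1 averaged 11.96 in dNLS bigenic and 12.85 in nontransgenic mice, and Wfs1 10.02 in dNLS bigenic and 11.65 in nontransgenic mice. The summed level of 17 cortical excitatory neuron markers was 14.84 to 15.13 against 15.34 to 15.51, with 6 lower, among them Lamp5 (-1.33 ± 0.06), and 1 higher. That of 14 interneuron markers was 14.24 to 14.32 in dNLS bigenic and 14.29 to 14.51 in nontransgenic mice, with Gad1 (-0.20 ± 0.06) and Reln (-0.51 ± 0.11) lower and Erbb4 at the lowest value on all arrays. The part of these cells in the changes of Penk, Cck and Cort was not tested. The summed level of 8 choroid plexus markers was 14.08 to 14.18 in 4 dNLS bigenic mice and 12.14 in dNLS bigenic 4, against 10.61 to 13.88 in nontransgenic mice, so 4 of 5 dNLS bigenic arrays lay above all nontransgenic arrays. The medians were 14.08 in dNLS bigenic and 12.53 in nontransgenic mice. Nearly all of this sum was Ttr, whose own medians were 14.07 in dNLS bigenic and 12.52 in nontransgenic mice. None of the 8 passed in limma's fit, and 1 had an unadjusted p under 0.05. Within groups the summed choroid plexus level gave r = -0.15 with Penk and -0.27 with Nts over 21 mice. The summed hippocampus level gave r = 0.55 with Penk (permutation p = 0.04, adjusted p = 0.19 over 24 relations) and 0.47 with Nts. No member passed with either list in r or rho after adjustment. Neither list was added to the fit, so its part in the changes of the members was not tested. Among hypothalamus and amygdala markers 1 of 11 was lower, Lypd1 (-1.25 ± 0.21), among astrocyte markers 1 of 10, Aldh1l1 (-0.47 ± 0.12), among oligodendrocyte markers 1 of 7, Mbp (-0.13 ± 0.04), and among microglia markers 2 of 9, Tmem119 (-0.61 ± 0.15) and Gpr34 (-1.04 ± 0.30), with 0 higher in these 4 lists.

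Of 21 other neuropeptide genes measured, 5 passed in dNLS bigenic against nontransgenic mice, a share close to the 22.3% of all genes, beside which the counts of the following lists also stand. Of the 21, 2 rose and 3 fell, while 5 others, among them Hcrt and Ucn, lay at the lowest value on all arrays. Npy, the neuropeptide Y precursor of interneurons, rose (12.53 in dNLS bigenic and 12.21 in nontransgenic mice on average, log2 change 0.34 ± 0.06 SE, adjusted p = 0.000384). Pnoc, the nociceptin precursor and a further gene of the opioid family, rose by 0.93 ± 0.20 on the log2 scale (adjusted p = 0.0027). Grp, which encodes gastrin-releasing peptide, averaged 8.37 in dNLS bigenic and 10.16 in nontransgenic mice (-1.77 ± 0.27, adjusted p = 0.000119). Cartpt, the precursor of the CART peptides, averaged 6.51 in dNLS bigenic and 8.20 in nontransgenic mice (-1.69 ± 0.21, adjusted p = 1.9e-05). Sst, the somatostatin precursor and a relative of Cort, fell by 0.44 ± 0.12 (adjusted p = 0.0157), whereas Cort rose. Npy was higher and Grp and Cartpt lower in the direct comparison with WT bigenic mice too, at 0.42 ± 0.07, -1.08 ± 0.33 and -0.90 ± 0.26 (adjusted p = 0.000921, 0.0445 and 0.0333).

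Of 7 other granin and vesicle cargo genes, 2 were higher and 1 lower in dNLS bigenic than in nontransgenic mice. Chga, which encodes chromogranin A, averaged 11.76 in dNLS bigenic and 11.13 in nontransgenic mice (0.67 ± 0.12, adjusted p = 0.000423), unlike the granin Scg2 above. Its change was 0.73 ± 0.14 (adjusted p = 0.00286) against WT bigenic mice and 0.82 ± 0.13 (adjusted p = 0.000393) against dNLS monogenic mice. Pcsk1n, the proSAAS inhibitor of a prohormone convertase, was higher by 0.23 ± 0.07 (adjusted p = 0.0337). Nptx2, a secreted pentraxin induced by activity, averaged 7.91 in dNLS bigenic and 9.68 in nontransgenic mice (-1.87 ± 0.37, adjusted p = 0.00111).

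Among 20 prohormone processing genes, 3 rose and 3 fell in dNLS bigenic against nontransgenic mice, and Cpz lay at the lowest value on all arrays. The genes that rose were Ece1, the endothelin converting enzyme, which also cleaves neuropeptides (0.69 ± 0.08), and the peptidases Prcp (0.79 ± 0.18) and Prep (0.62 ± 0.16). Those that fell build or trim peptides inside the vesicle. Cpe, carboxypeptidase E, changed by -0.20 ± 0.06 (adjusted p = 0.0132), Pam, which amidates peptide ends, by -0.30 ± 0.09 (adjusted p = 0.0288) and Qpct, which forms the pyroglutamate end found on neurotensin, by -0.83 ± 0.25 (adjusted p = 0.0250).

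Of 19 genes of dense-core vesicle release, 1 rose and 3 fell. Cadps2, which primes dense-core vesicles, averaged 11.72 in dNLS bigenic and 12.38 in nontransgenic mice (-0.67 ± 0.04, adjusted p = 1.6e-08). It was also lower than in WT bigenic (-0.54 ± 0.05) and dNLS monogenic mice (-0.63 ± 0.05). Stx1a, a syntaxin of the plasma membrane, changed by -0.62 ± 0.10 and Rab2a, a small GTPase of vesicle formation, by -0.19 ± 0.03, while Syt4, a synaptotagmin, rose by 0.18 ± 0.06.

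Of 27 neuropeptide receptor genes 12 lay at the lowest value on all arrays, among them the opioid receptor Oprd1, the substance P receptor Tacr1 and the somatostatin receptors Sstr1, Sstr3, Sstr4 and Sstr5. Oprl1, the nociceptin receptor, rose in dNLS bigenic mice (10.19 in dNLS bigenic and 9.24 in nontransgenic mice, 0.93 ± 0.11, adjusted p = 6.6e-06), and its ligand gene Pnoc rose in the same comparison. Sstr2, a receptor for somatostatin and cortistatin, fell by 0.71 ± 0.16 on the log2 scale (adjusted p = 0.0028). Against dNLS monogenic mice Crhr1, the receptor of the Crh peptide, was higher by 1.23 ± 0.35 (adjusted p = 0.0252). Crhr1 did not pass against nontransgenic or WT bigenic mice. Against dNLS monogenic mice Oprl1 was higher and Sstr2 lower too, and Sort1 was also lower (-0.20 ± 0.06, adjusted p = 0.0310).

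Of 25 CREB and activity-regulated genes, 1 rose and 6 fell in dNLS bigenic against nontransgenic mice, with a median change of -0.44. Egr2, an activity-induced zinc-finger factor, averaged 6.97 in dNLS bigenic and 11.13 in nontransgenic mice (-4.38 ± 0.67, adjusted p = 0.000122). Arc, a synaptic immediate early gene, changed by -1.71 ± 0.56 (adjusted p = 0.0356), Jun by -0.79 ± 0.09 and Dusp6, a phosphatase of the MAP kinase pathway, by -0.68 ± 0.20. Atf3, a stress-induced factor of the CREB family, averaged 3.11 in dNLS bigenic and 2.07 in nontransgenic mice (1.14 ± 0.28, adjusted p = 0.00692), the nontransgenic mean being close to the lowest value. Against WT bigenic mice 8 of the 25 fell and 1 rose, where 4.53% of all genes fell and 6.24% rose. Against dNLS monogenic mice, of the same line, 2 fell, Jun and Egr2, and 1 rose, Atf3, with a median change of -0.13. There 6.54% of all genes fell and 7.76% rose, and Arc and Dusp6 did not pass. In dNLS monogenic against nontransgenic mice the median change of the list was -0.19, and 0 of the 25 passed, as did 0% of all genes. In WT bigenic against nontransgenic mice 0 genes passed in any of these 6 lists in limma's fit, where 2.23% of all genes passed, and between 1 and 5 of each list had an unadjusted p under 0.05.

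**Figure D5:**
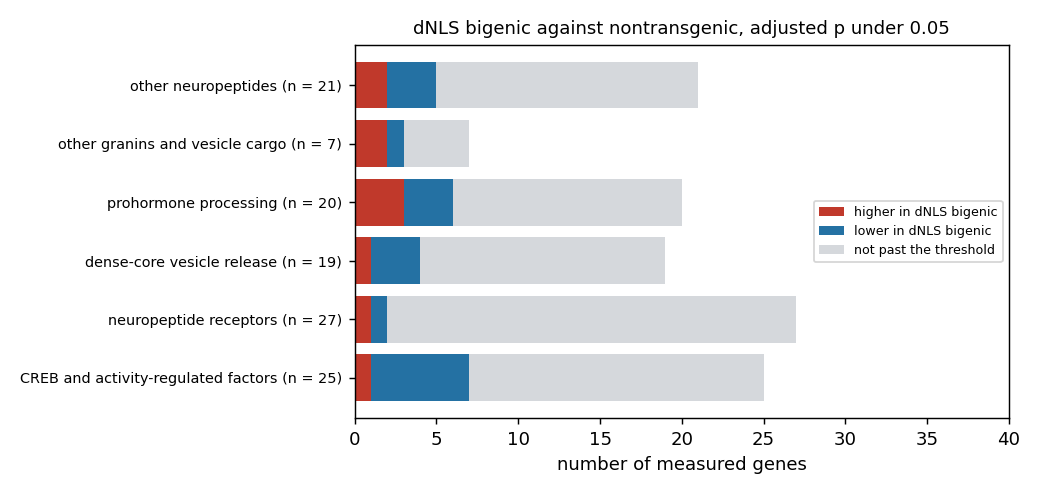
Number of measured genes in 6 lists around neuropeptide signalling that were higher (red), lower (blue) or not past the threshold (grey) in dNLS bigenic against nontransgenic mice at an adjusted p under 0.05. The list of CREB and activity-regulated factors has 6 lower and 1 higher of 25, and the receptor list 1 of each of 27.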

How the data were processed

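The deposited values are log2 levels of 22690 probe sets on 21 Affymetrix MOE430A 2.0 arrays, from total RNA of mouse cerebral cortex. Partek is named in the submitters' processing notes without a version or a role. How the authors corrected, normalized and summarized the signals is not given in the sources used here. The log base was inferred from the span of the values (2.04 to 15.1). The number of arrays limits the precision, and values near 2.04 are compressed.

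Of the probe sets, 20380 named 1 gene, and for each of 12393 genes the probe set of highest mean was used. Groups, lines and sexes follow the labels. The model, limma 3.58.1 under R 4.3.3 (lmFit, eBayes with an intensity trend), had 4 groups plus sex and used every array, after a test on simulated data. Benjamini-Hochberg adjustment ran over all genes, with a threshold of 0.05. Single values were also compared by two-sided exact permutation of raw group differences, without sex and not adjusted over genes. Each array is 1 mouse, so errors are the spread between mice. Correlations used group-centred values permuted within groups. List sums add linear levels and are given as log2.

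The members and 15 gene lists were chosen with earlier results of these data known. All members are named, and from each list up to 4 genes past the threshold with the largest changes in each direction of a comparison, with defining markers at the lowest value. The 2 genes of highest Pearson correlation are named for each member. Other markers named, Neurod6, Drd2, Rgs9, Ppp1r1b, Rarb and Pde10a among them, were chosen after their values were seen. Alternatives changed the scaling, covariates, filters, weights and arrays used.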

Additional observations from a re-analysis of the deposited data

Results flagged for a closer look

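Cck in dNLS bigenic 5 stood apart from the rest of its group, at 11.73 on the log2 scale. The nearest of the other 4 dNLS bigenic mice read 12.13, a gap of 0.81 of the range of the group. The mouse was the only female of the 5. It was the only such array in 32 sets of 1 gene in 1 group, of which chance flags about 1 in 20.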

How the results depend on the processing

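Among 5 comparisons, the count of members past the threshold was 0 in dNLS monogenic against nontransgenic mice under every alternative run. Leaving out each array in turn gave 2 to 4 members in dNLS bigenic against nontransgenic, 0 to 1 in WT bigenic against nontransgenic, 0 to 3 in dNLS bigenic against WT bigenic, 0 to 4 in dNLS bigenic against dNLS monogenic and 0 to 0 in dNLS monogenic against nontransgenic mice. In WT bigenic against nontransgenic mice the count was 0 with arrays centred on their medians, with quantile normalization, without nontransgenic 4 and 6, against mice of the same line and with the striatum covariate, against 1. In dNLS bigenic against WT bigenic mice it was 4 without the sex covariate, 4 with array weights and 5 with the mean striatum level as a covariate, against 2. In dNLS bigenic against dNLS monogenic mice it was 6 with array weights and 5 in arrays labelled male, against 3. In dNLS bigenic against nontransgenic mice it was 1 in arrays labelled male, against 3. The count of 3 there held with centring and with array weights, where Nts passed and Cck did not. Over all genes, array weights called 4247 in dNLS bigenic against nontransgenic mice, against 2759, and centring changed the share of higher among called genes in WT bigenic against nontransgenic mice to 14.5%, against 30.8%. The cause of these shifts was not tested.

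Every sign change was of a change that did not pass in either setting. Between dNLS bigenic and nontransgenic mice these were Pdyn (0.04 in the reported fit), at -0.030 without the sex covariate and in the exact permutation test of raw means, -0.59 with array weights, -0.31 without nontransgenic 4 and 6 and -0.097 with the striatum covariate. With 1 array left out Pdyn ran from -0.23 to 0.21 and Scg2 from -0.035 to 0.010. Between WT bigenic and nontransgenic mice, the mice of the same line gave -0.31 for Penk, -0.50 for Nts, -0.60 for Tac1, -0.18 for Pdyn and 0.0075 for Cort, and the striatum covariate, chosen after seeing the data, gave -0.30 for Penk, -0.19 for Nts, -0.21 for Tac1 and 0.042 for Cort. Its mean in place of the sum gave -0.090 for Penk and -0.093 for Tac1. Cort was 0.077 with quantile normalization, 0.016 with array weights and 0.086 without nontransgenic 4 and 6, and Cck was -0.0027 without the sex covariate and in the permutation test. With 1 array left out Penk ran from -0.037 to 0.34, Cck from -0.018 to 0.044, Tac1 from -0.070 to 0.16 and Cort from -0.11 to 0.064. Between dNLS monogenic and nontransgenic mice Cort ran from -0.043 to 0.20 with 1 array left out, and Penk was -0.085 with the striatum covariate. The cause of these was not tested.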
